A study of Mus musculus with 12 samples.

Results

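ATP-binding cassette (ABC) transporters were followed through 12 bulk RNA-seq libraries from mouse meninges. The members are the 50 genes whose symbol is Abc, a subfamily letter from a to g and a number, out of 27578 genes found in both annotations used for the counting. There are 16 in subfamily A, 10 in B, 10 in C, 4 in D, 1 in E, 3 in F and 6 in G. All libraries come from male C57BL/6J mice and carry the cell type label monocyte, after magnetic isolation with a kit. Each of 4 groups has 3 libraries: unstressed mice, and mice restrained on 18 days, dosed with vehicle, psilocybin or MDMA, and sampled 24 hours later. Psilocybin is the prodrug of psilocin, a serotonin receptor agonist, and MDMA is an amphetamine that releases monoamines. The labels name no dose and no age. Nothing says that the libraries of a group came from separate animals, so the p-values measure only the spread between these libraries.

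ABC transporters are membrane proteins that use ATP to move lipids, peptides, metabolites, metals and drugs across membranes. At the blood-brain barrier and the choroid plexus they are best known as efflux pumps, which move drugs and waste out of cells. These are P-glycoprotein (Abcb1a and Abcb1b), the breast cancer resistance protein (Abcg2) and the multidrug resistance proteins of subfamily C. Subfamily A and Abcg1 handle cholesterol and phospholipids, subfamily D serves peroxisomes and lysosomes, some members of B serve mitochondria, and E and F are soluble proteins of translation.

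The libraries held 807725 to 5136953 gene counts. Levels are given as CPM, a gene's share of all counts in its library on the usual scale. A list of 12 markers of choroid plexus epithelium summed to 13200 to 129000 CPM per library, and 10 markers of classical monocytes to 405 to 2360 CPM. The monocyte gene Ccr2 had 0.276 CPM in vehicle replicate 1 and 16.1 to 121 CPM in the other 11 libraries. Other markers of that list were mixed in vehicle replicate 1. Lyz2 had 325 and Cd14 119 CPM, Ly6c2 and Csf1r had 0, and the list summed to 579 CPM. Given the sums of both lists, the label is kept only as a label, and choroid plexus, endothelial, mural and fibroblast transcripts share these libraries. Vehicle replicates 1, 2 and 3 lacked any count for 29.2%, 11.1% and 34.2% of the 13945 genes tested, against 0.33% to 6.93% in the other 9 libraries. Unstressed libraries were counted with a RefSeq annotation and stressed libraries with an Ensembl annotation, so annotation and absence of stress cannot be told apart.

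Promoters are shown for Abcb10, Abcd3 and Abcg3, which with Abcd4 lay lower in every vehicle library than in all others, and for Abca1, a cholesterol exporter. Abcd4, the only member that passed edgeR's test between 2 groups, is named only, and none of the 4 shown passed it. Each line gives the 250 bases before the RefSeq start, build GRCm38.p6, minus strand, 5′ to 3′. The windows are chr8:123983123-123983372 for Abcb10, chr3:121815303-121815552 for Abcd3, chr5:104982718-104982967 for Abcg3 and chr4:53159896-53160145 for Abca1. Capitals mark matches on either strand to any of 5 motifs. These are GGGCGG, known as the Sp1 box, the sequence GCATGC from the centre of the NRF1 element, the E-box CACGTG, the motif CCAAT of factor NF-Y, and the TATA box with letters TATAAA.
Abcb10: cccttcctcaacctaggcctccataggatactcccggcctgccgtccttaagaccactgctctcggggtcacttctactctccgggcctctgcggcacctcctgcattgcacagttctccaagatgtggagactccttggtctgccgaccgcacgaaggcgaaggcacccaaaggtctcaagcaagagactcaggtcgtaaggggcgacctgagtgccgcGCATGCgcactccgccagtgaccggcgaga
Abcd3: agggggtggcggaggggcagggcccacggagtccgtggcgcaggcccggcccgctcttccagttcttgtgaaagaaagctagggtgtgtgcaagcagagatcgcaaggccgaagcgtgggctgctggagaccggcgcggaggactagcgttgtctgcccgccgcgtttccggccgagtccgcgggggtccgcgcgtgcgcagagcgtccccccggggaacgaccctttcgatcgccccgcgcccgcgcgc
Abcg3: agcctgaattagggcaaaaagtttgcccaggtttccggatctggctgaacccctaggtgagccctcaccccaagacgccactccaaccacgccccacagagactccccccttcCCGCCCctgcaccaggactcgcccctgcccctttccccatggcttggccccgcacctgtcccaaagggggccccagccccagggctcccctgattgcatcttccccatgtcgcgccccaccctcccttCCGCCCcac
Abca1: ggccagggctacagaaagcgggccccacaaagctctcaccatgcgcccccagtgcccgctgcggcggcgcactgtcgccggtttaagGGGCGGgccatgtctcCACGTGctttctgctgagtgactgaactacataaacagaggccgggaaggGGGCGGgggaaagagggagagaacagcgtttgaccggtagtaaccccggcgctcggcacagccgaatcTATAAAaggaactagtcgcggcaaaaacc
The RefSeq table held 45 promoters of 38 of the 50 members. The Abcb10 window holds GCATGC, found in 6.7% of all 32851 promoters over the same 250 bases and, among the other members, in that of Abcf3. Its 17 CpG dinucleotides and the 34 of Abcd3 compare with a median of 6 over all promoters and 12 over those of members. Abcg3 has 9. Abcd3 holds none of the 5 motifs as written. Variant forms of these elements were not searched, so a window without a match may still hold such an element. Abcg3 holds the Sp1 box on the opposite strand in 2 places, and 32.7% of all promoters hold that box. Abca1 holds the Sp1 box in 2 places, the E-box (6.02% of all promoters) and the TATA box (12.4%). No motif overlaps another in these windows. A match is a run of letters and not evidence of binding.

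The filter on low counts left 36 of the 50 members for testing. Abca14, Abcb5 and Abcb11 (the bile salt export pump of liver) had no count in any library. The other 11 untested members were Abca12, Abca13, Abca15, Abca16, Abca17, Abcc2, Abcc6, Abcc8, Abcc12, Abcg5 and Abcg8, and Abcg5 and Abcg8, the paired sterol exporters of gut and liver, stayed at or under 0.499 CPM. From 36 to 43 members had at least 1 count in each unstressed, psilocybin and MDMA library. Vehicle replicates 1, 2 and 3 had a count for 28, 33 and 26 members. Among tested members, 9, 6 and 10 of 36 were at 0 in vehicle replicates 1, 2 and 3, near the shares of all genes given above.

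Levels of different genes can be ordered only per length. By mean CPM per kilobase of exon over the 12 libraries, Abcf2 was highest at 40.9, then Abcg2 at 36.4, Abcf1 at 28.1, Abcg1 at 25.9, Abcf3 at 22.1 and Abce1 at 22.0. Abca1 had 19.8, Abcd3 19.2 and Abcb1a 18.4 CPM per kilobase. These 9 genes were not separated by their spread over libraries, since Abcf2 ranged from 14.3 to 139 and Abcb1a from 4.89 to 28.8 CPM per kilobase. The lowest tested members were Abcc3 at 0.407, Abcb4 at 0.611 and Abcc10 at 0.711 CPM per kilobase.

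**Figure D1:**
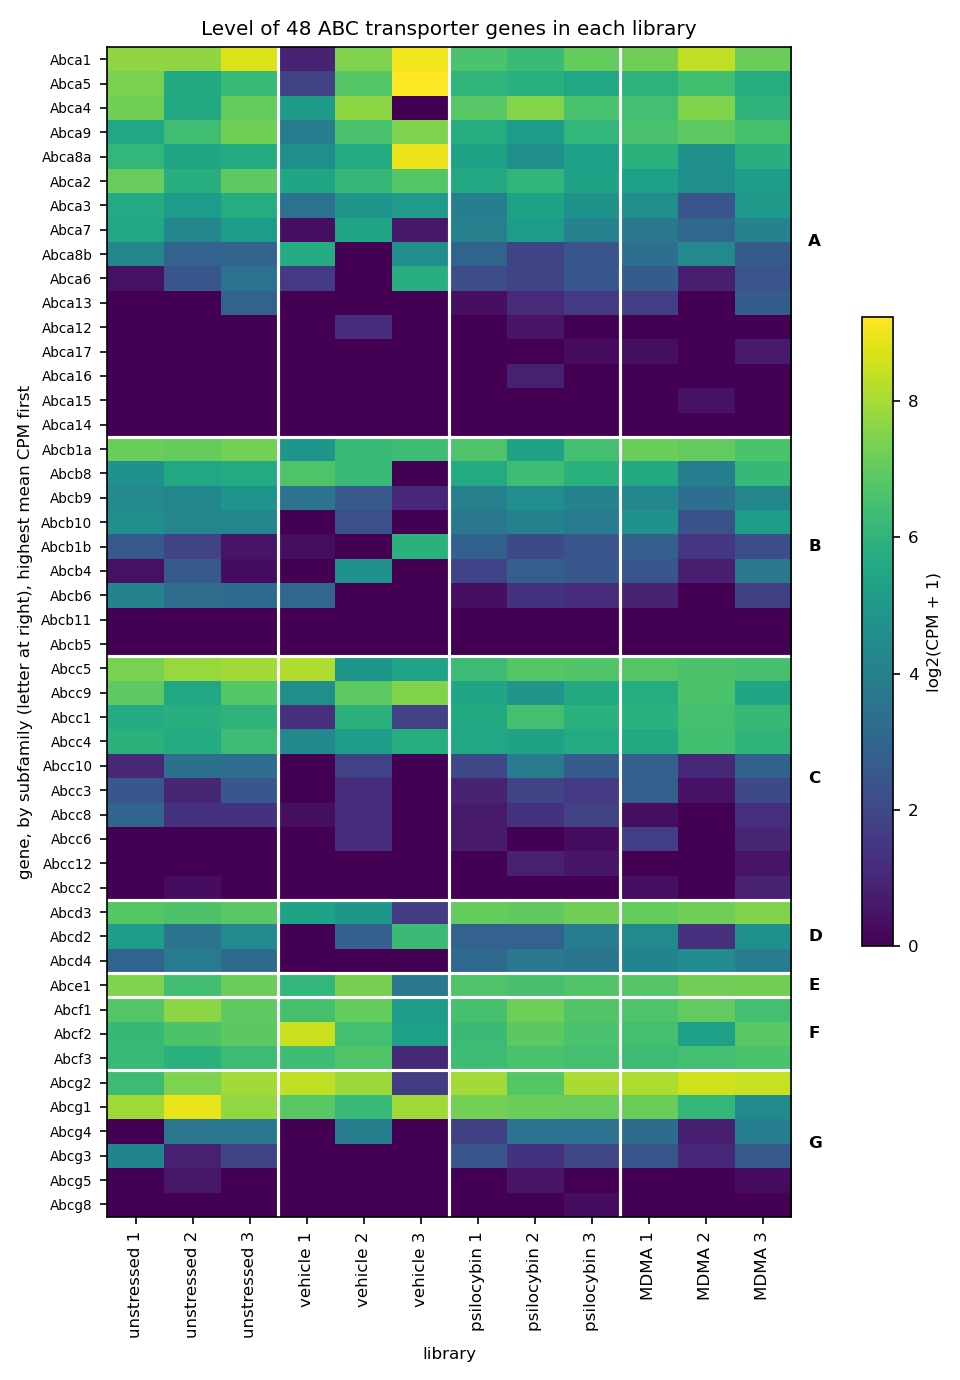
Level of 48 of the 50 members (rows, ordered within subfamilies A to G by mean CPM) in each of the 12 libraries (columns), coloured by log2(CPM + 1). The vehicle columns hold both the brightest cells (Abca5 and Abca1 in replicate 3) and most of the dark cells among members that are seen in every other group.

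All members together took 2672 ± 315 CPM in unstressed, 2279 ± 553 in vehicle, 1902 ± 60.9 in psilocybin and 2233 ± 140 in MDMA libraries (mean ± SD, n = 3 each, as in the sums that follow). Subfamily A summed to 831 ± 262, 994 ± 945, 479 ± 35.5 and 609 ± 156 CPM in unstressed, vehicle, psilocybin and MDMA libraries. Subfamily C summed to 435 ± 69.4, 282 ± 37.9, 259 ± 33.5 and 311 ± 54.5 CPM, with the highest mean in unstressed libraries. Subfamily D summed to 165 ± 16.5, 82.7 ± 48.8, 177 ± 20.5 and 217 ± 49.9 CPM, with the lowest mean in vehicle. Subfamily B summed to 302 ± 42.8, 198 ± 61.5, 229 ± 13.7 and 263 ± 50.9 CPM. Subfamily G summed to 494 ± 168, 333 ± 102, 360 ± 87.3 and 420 ± 29.7 CPM. The SD of A in vehicle is nearly as large as its mean, and the psilocybin SD is the smallest of the 4 groups in A, B, C and E.

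Subfamily D carried the only member that passed the test between 2 groups. Abcd4, on chr12:84601464-84617413 (ENSMUSG00000021240.6, minus strand), encodes a lysosomal transporter that takes part in the release of vitamin B12. It had 20, 53 and 38 counts in unstressed replicates 1, 2 and 3. Psilocybin libraries had 27, 30 and 45 counts and MDMA libraries 60, 59 and 70. Every vehicle library had 0 counts. In CPM the 3 other groups gave 9.48 ± 3.34, 10.2 ± 1.92 and 17.0 ± 3.51 (SD, n = 3) for unstressed, psilocybin and MDMA. The vehicle group overlapped none of them, and the MDMA libraries, at 16.8, 20.6 and 13.6 CPM, lay above all 9 others, as did 0.947% of all genes.

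With a floor of 3 counts over the vehicle group, Abcd4 was at least 20.6-fold higher in unstressed, at least 21.6-fold higher in psilocybin and at least 34.8-fold higher in MDMA. Without vehicle replicate 1, the deepest of the 3, these bounds were 8.92, 9.34 and 15. The floor covers counting error only and leaves out the spread between the vehicle libraries. In edgeR's quasi-likelihood test over all genes, Abcd4 was lower in vehicle than in unstressed libraries (adjusted p = 0.0334) and higher in MDMA than in vehicle (adjusted p = 0.0465). Psilocybin against vehicle gave an adjusted p of 0.0687 and missed the threshold of 0.05. The call against unstressed ended in 6 of 15 alternatives, with adjusted p from 0.000228 to 0.269. The call for MDMA ended in 9 of 16, with adjusted p from 4e-05 to 0.532. It ended when any single unstressed or MDMA library of the comparison was left out, and for MDMA also without vehicle replicate 1.

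An empty gene was not rare in the vehicle libraries: 815 of the 13945 genes tested (5.84%) had 0 counts in all 3, as had 2 of the 36 members (5.56%), Abcd4 and Abcg3. Among genes with a mean of at least 5 CPM in the other 9 libraries, as Abcd4 has, 358 of 12364 (2.9%) were at 0 in all 3. Fewer cells of a type and less RNA per cell cannot be told apart in bulk libraries. The exons counted for Abcd4 and for no other gene span 8006 bases in the Ensembl annotation and 3077 in RefSeq, and their part in the difference from unstressed libraries was not tested.

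**Figure D2:**
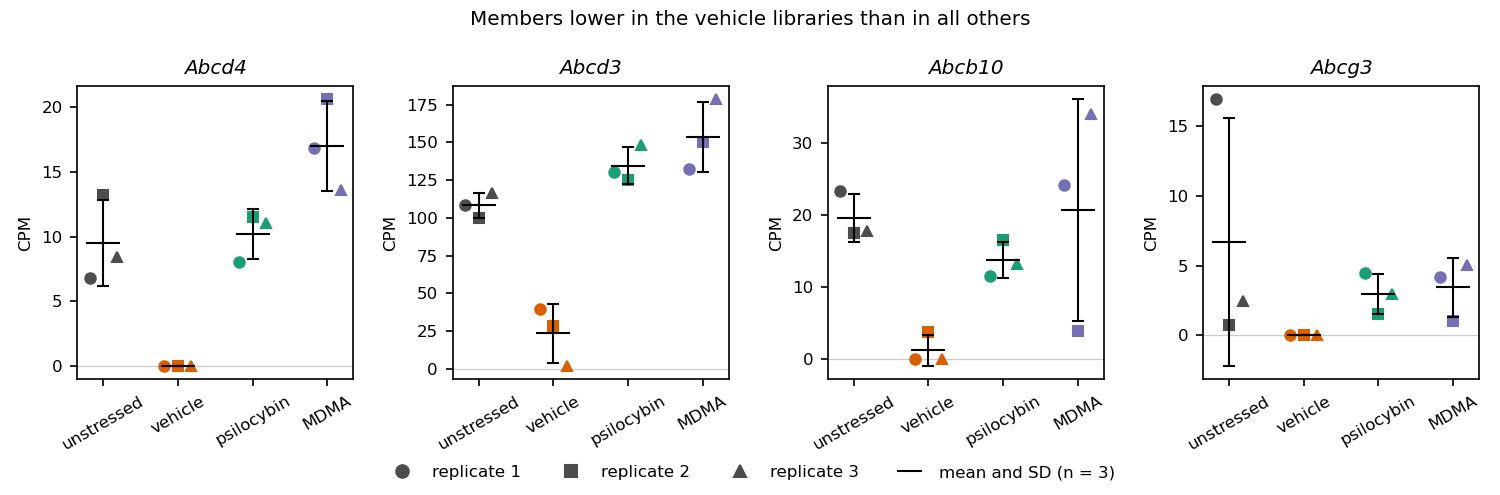
CPM of Abcd4, Abcd3, Abcb10 and Abcg3 (vertical axes, each from its own range) in the 4 groups; symbols are replicates, and the bar with whiskers is the mean and SD of 3 libraries. Vehicle points lie at the bottom of every panel, at 0 CPM in all 3 libraries for Abcd4 and Abcg3.

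Abcd3, a transporter of branched and long-chain acyl-CoA into peroxisomes, made up most of subfamily D in every library except vehicle replicates 2 and 3. Its levels were 109, 99.8 and 116 CPM in unstressed, 39.5, 28.5 and 2.05 in vehicle, 130, 125 and 148 in psilocybin, and 132, 150 and 178 CPM in MDMA libraries. All 3 vehicle libraries lay below the other 9. The log2 difference was -2.15 ± 0.70 (SE) for vehicle against unstressed (edgeR adjusted p = 0.103). It was 2.47 ± 0.71 for psilocybin against vehicle (adjusted p = 0.117) and 2.61 ± 0.71 for MDMA against vehicle (adjusted p = 0.0839), none past the threshold. Over the alternatives Abcd3 passed in 4 of 15, 3 of 16 and 4 of 16 for these comparisons, with adjusted p from 0.00614 to 0.858. The own exons of Abcd3 span 6593 bases in the annotation of the stressed and 3688 in that of the unstressed libraries.

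Abcd2, a peroxisomal transporter of fatty acyl-CoA, had 0, 6.19 and 76.8 CPM in vehicle and 1.40 to 34.6 CPM elsewhere. The vehicle libraries thus spanned its whole range. Of 9 tested peroxisomal partners, among them Pex5 and Hsd17b4, none passed in any of the 6 comparisons.

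Subfamily B joins efflux pumps with mitochondrial carriers. Abcb1a, the P-glycoprotein of brain capillaries, had 141, 132 and 157 CPM in unstressed, 26.8, 78.0 and 80.9 in vehicle, 103, 38.8 and 87.5 in psilocybin, and 142, 128 and 96.0 CPM in MDMA libraries. Unstressed libraries lay above all vehicle and psilocybin libraries. The log2 differences from unstressed were -0.998 ± 0.59 for vehicle (edgeR adjusted p = 0.405) and -0.89 ± 0.59 for psilocybin (adjusted p = 0.96), and neither passed. The 12 endothelial markers summed to 1220 to 3230 CPM, lowest in psilocybin replicate 2 and highest in vehicle replicate 1, the library where Abcb1a was lowest.

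Abcb1b, the second P-glycoprotein gene of the mouse, and Abcb4, which flips phosphatidylcholine, lie next to Abcb1a on chromosome 5, at 8798147 to 8866315 and 8893717 to 8959231. Abcb1b had 58.8 CPM in vehicle replicate 3 and at most 6.22 CPM in the other 11 libraries. Abcb4 had 26.0 CPM in vehicle replicate 2 and at most 12.1 CPM elsewhere. Each of these peaks was therefore a single vehicle library, and not the same one. Reads of such near copies can be split between them by the counting, so their separate levels are uncertain.

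Among mitochondrial members, Abcb10, which takes part in haem synthesis, had 23.4, 17.5 and 17.8 CPM in unstressed and 11.5, 16.5 and 13.2 in psilocybin libraries. MDMA libraries had 24.1, 3.85 and 34.1 CPM, and vehicle libraries 0, 3.71 and 0, all below the other 9. Vehicle held 3 counts, all in replicate 2, its shallowest library, and the ratio of pooled counts was 40.7 (95% counting interval 13.7 to 199) for unstressed, 28.8 (9.64 to 141) for psilocybin and 50.1 (17.0 to 244) for MDMA over vehicle. The ratios of mean CPM, which weight the libraries equally, were 15.8, 11.1 and 16.7. Pooled ratios were 17.6, 12.4 and 21.7 without vehicle replicate 1, and that of MDMA was 32.1 without MDMA replicate 3. Without vehicle replicate 2 the vehicle group had 0 counts, and Abcb10 was at least 35.5-fold, 25.1-fold and 43.7-fold higher in unstressed, psilocybin and MDMA. The edgeR adjusted p was 0.103, 0.184 and 0.126 for these comparisons. Interval and floor cover counting error only.

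Abcb8, another mitochondrial member, had 102, 75.5 and 0 CPM in vehicle against 14.7 to 80.7 CPM elsewhere. Abcb9, a lysosomal peptide transporter, had 10.5, 4.95 and 1.02 CPM in vehicle and 9.44 to 26.4 CPM elsewhere. Vehicle replicate 3 was the lowest library for both genes. Of 11 tested haem and iron-sulfur partners none passed. Fech, the enzyme that inserts iron into haem, had 13.3, 50.8 and 1.02 CPM in vehicle and 81.7 to 148 CPM in the other 9 libraries (edgeR adjusted p = 0.14 for psilocybin and 0.105 for MDMA against vehicle).

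Abcb6, a porphyrin transporter, was the single member higher in every unstressed library than in every stressed one, as were 592 of all genes tested (4.25%). It had 15.9, 8.73 and 8.44 CPM in unstressed, 7.18, 0 and 0 in vehicle, 0.296, 1.54 and 1.23 in psilocybin, and 0.841, 0 and 2.34 CPM in MDMA libraries. The log2 difference from unstressed was -3.41 ± 1.5 for psilocybin (edgeR adjusted p = 0.733) and -3.39 ± 1.48 for MDMA (adjusted p = 0.908). Its own exons span 2383 bases in the annotation of the stressed and 3043 in that of the unstressed libraries.

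Subfamily A holds the lipid exporters. Abca1, which loads cholesterol onto apolipoproteins, had 205, 208 and 428 CPM in unstressed, 0.828, 175 and 536 in vehicle, 98.0, 77.3 and 131 in psilocybin, and 149, 323 and 143 CPM in MDMA libraries. The vehicle group held both its lowest and its highest library. The psilocybin libraries lay below all unstressed and all MDMA libraries. The log2 difference was -1.46 ± 1.14 from unstressed (edgeR adjusted p = 0.977) and -1.01 ± 1.13 from MDMA (adjusted p = 1), so neither passed.

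Abca5, Abca6, Abca8a, Abca8b and Abca9 lie side by side on the minus strand of chr11:109932190-110337716. In vehicle replicate 3, Abca5 had 599 CPM against 2.48 to 165 in the other 11 libraries, and Abca8a had 499.9 CPM against 23.4 to 67.5. Abca6 had 54.2 CPM there against at most 10.2 elsewhere, and Abca9 had 175 CPM against 13.5 to 153. Abca8b, the outermost gene of the row, was highest in vehicle replicate 1 at 50.8 CPM and had 23.0 CPM in vehicle replicate 3. So 4 of the 5 neighbours peaked in the same library. Marker sums of that library were 13200 CPM for choroid plexus epithelium, the lowest of all 12, 5750 for fibroblasts and 5120 for mural cells. Their part in these levels was not tested.

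The log2 difference of Abca8a was 2.29 ± 0.96 for vehicle against unstressed (edgeR adjusted p = 0.213), -2.98 ± 0.99 for psilocybin against vehicle (adjusted p = 0.152) and -2.59 ± 0.97 for MDMA against vehicle (adjusted p = 0.178). None passed, and the groups overlapped. Without vehicle replicate 3 the difference was -0.57 for vehicle against unstressed and 0.30 for MDMA against vehicle, so both turned with that library.

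**Figure D3:**
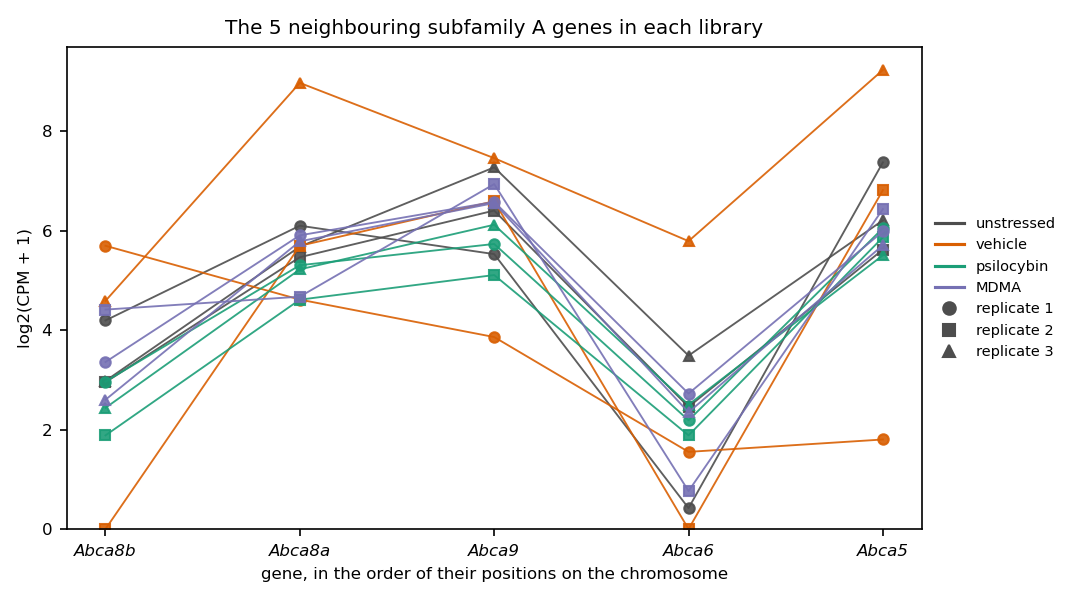
log2(CPM + 1) of 5 neighbouring subfamily A genes, in the order of their positions, with 1 line per library; colours are groups and symbols replicates. The line of vehicle replicate 3 is highest at Abca8a, Abca9, Abca6 and Abca5, and that of vehicle replicate 1 is lowest at Abca9 and Abca5.

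Abca2, a lysosomal lipid transporter of myelin-forming cells, had 134, 55.4 and 122 CPM in unstressed, 42.2, 70.6 and 109 in vehicle, and 46.8, 66.5 and 39.2 in psilocybin libraries. MDMA libraries, at 35.6, 23.4 and 33.9 CPM, lay below all 9 others, a position that 11 of the 13945 genes (0.0789%) held. The log2 difference of MDMA was -1.81 ± 0.64 from unstressed (edgeR adjusted p = 0.578) and -1.58 ± 0.64 from vehicle (adjusted p = 0.221). Psilocybin minus MDMA was 0.78 ± 0.63 (adjusted p = 1). No comparison of Abca2 passed, and DESeq2 alone of its alternatives called MDMA against vehicle (adjusted p = 0.0478).

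Abca4, the retinoid transporter of photoreceptors, was counted in 11 of 12 libraries. It had 152, 47.6 and 132 CPM in unstressed, 112, 181 and 93.7 in psilocybin, and 86.9, 177 and 63.1 in MDMA libraries. Vehicle libraries had 32.0, 201 and 0 CPM, so that group spanned the whole range. Abca7, a phospholipid transporter linked to Alzheimer's disease risk, had 0.276, 43.3 and 0.512 CPM in vehicle and 7.34 to 45.8 CPM elsewhere. Abca3, which fills lamellar bodies of the lung, had 4.55 to 50.8 CPM over all libraries.

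In subfamily G, Abcg1 exports cholesterol to lipoproteins and Abcg2 is the efflux pump of brain endothelium. Abcg1, on chr17:31057675-31117988, had 241, 487 and 213 CPM in unstressed, 117, 73.0 and 237 in vehicle, 156, 138 and 136 in psilocybin, and 140, 68.5 and 20.3 CPM in MDMA libraries. All unstressed libraries lay above all psilocybin and MDMA libraries. The log2 difference from unstressed was -2.06 ± 0.71 for MDMA (edgeR adjusted p = 0.544) and -1.10 ± 0.69 for psilocybin (adjusted p = 0.953). Neither passed in any of 14 alternatives, whose lowest adjusted p were 0.0873 and 0.0726. The cholesterol and lipoprotein partners gave no call among 18 tested members in any of the 6 comparisons, and Nr1h2, which encodes LXR beta, had 1.02 CPM in vehicle replicate 3 and 39.2 to 209 CPM elsewhere.

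Abcg2, on chr6:58584523-58695676, had 79.0, 172 and 247 CPM in unstressed, 326, 230 and 2.05 in vehicle, and 245, 109 and 264 in psilocybin libraries. MDMA libraries, at 272, 376 and 348 CPM, lay above all unstressed and all psilocybin libraries. The log2 difference was 0.96 ± 0.94 for MDMA against unstressed (edgeR adjusted p = 0.999) and -0.64 ± 0.93 for psilocybin against MDMA (adjusted p = 1). Its own exons span 8153 bases in the annotation of the stressed and 2913 in that of the unstressed libraries, and no group difference passed.

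Abcg3, a mouse gene close to Abcg2, had 17.0, 0.748 and 2.44 CPM in unstressed, 4.44, 1.54 and 2.94 in psilocybin, 4.21, 1.05 and 5.06 in MDMA and 0 in all 3 vehicle libraries. It was at least 11.9-fold higher in unstressed, 6.56-fold in psilocybin and 8.1-fold in MDMA than the vehicle floor. Unstressed replicate 1 held 50 of the 64 unstressed counts, and without it that bound was 3.5. Without vehicle replicate 1 the bounds were 5.14, 2.84 and 3.5. The edgeR adjusted p was 0.0692, 0.162 and 0.134 for these comparisons, so it did not pass. Abcg4, a sterol exporter of neurons, had 0, 13.6 and 0 CPM in vehicle and 0 to 14.4 CPM in the other libraries.

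**Figure D4:**
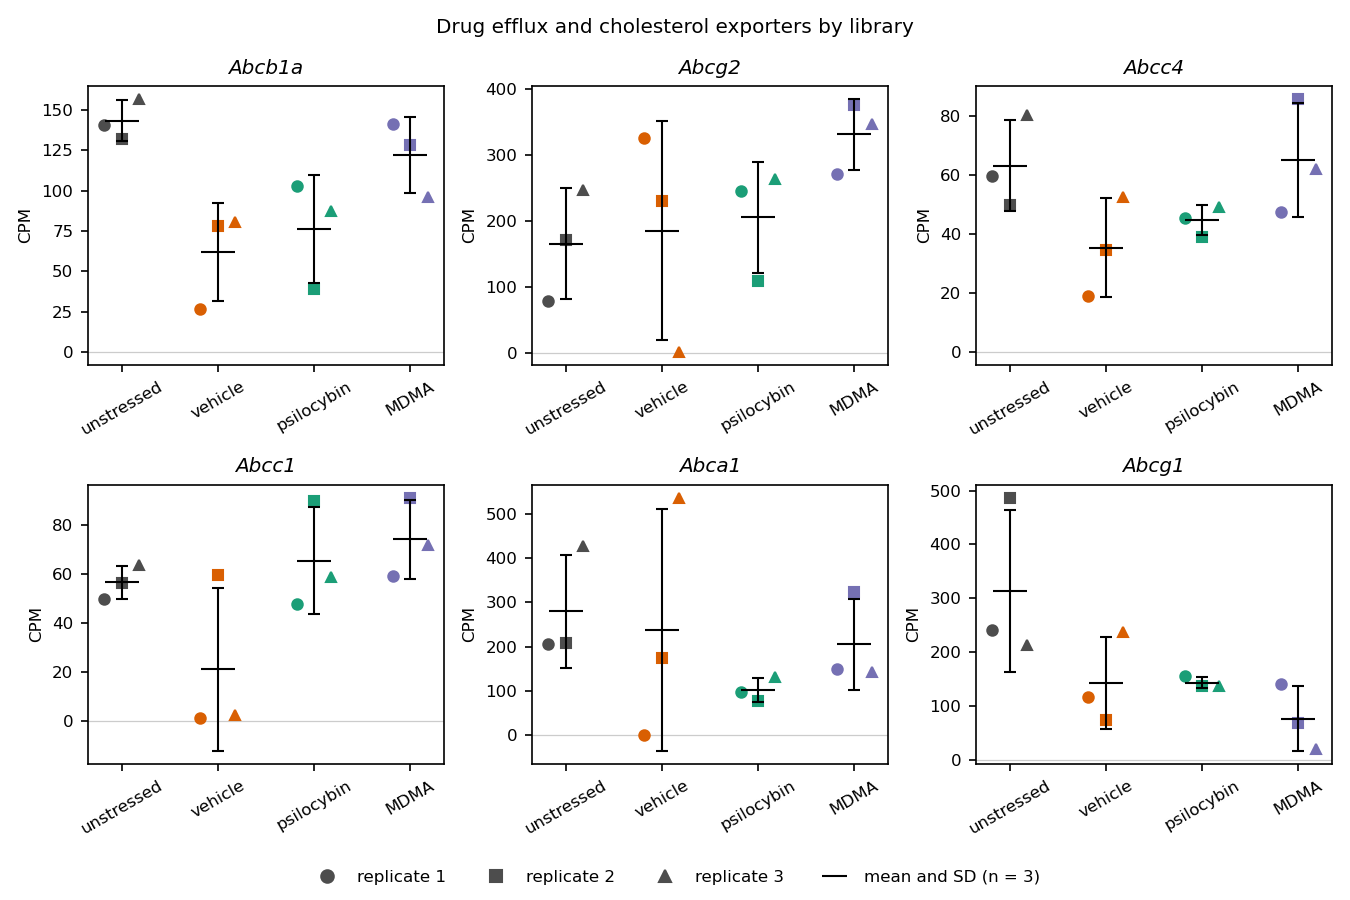
CPM of 3 drug efflux pumps (Abcb1a, Abcg2, Abcc4), Abcc1 and the cholesterol exporters Abca1 and Abcg1 in the 4 groups; symbols are replicates, and the bar with whiskers is the mean and SD of 3 libraries. Vehicle libraries spread over most of the axis for Abcg2 and Abca1, and the MDMA libraries lie lowest on average for Abcg1 and highest for Abcg2.

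Subfamily C holds the multidrug resistance proteins and the sulfonylurea receptors. Abcc5, a cyclic nucleotide exporter, had 165, 220 and 244 CPM in unstressed, 280, 28.5 and 40.9 in vehicle, 79.6, 111 and 104 in psilocybin, and 107, 99.3 and 89.6 CPM in MDMA libraries. Unstressed libraries lay above all psilocybin and MDMA libraries, with log2 differences of -1.09 ± 0.70 (edgeR adjusted p = 0.958) and -1.13 ± 0.70 (adjusted p = 0.999). The psilocybin difference passed only when those 6 libraries were fitted alone (adjusted p = 0.0353), as did Abca1 and Abcb6, which made 3 of 36 members (8.33%) against 10.3% of all genes in that fit.

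Abcc4, which exports prostaglandins and organic anions, had 59.7, 49.9 and 80.4 CPM in unstressed, 19.0, 34.7 and 52.7 in vehicle, 45.6, 39.2 and 49.3 in psilocybin, and 47.7, 86.0 and 62.3 CPM in MDMA libraries, and its groups overlapped in every comparison except psilocybin against unstressed. Abcc1, which exports glutathione conjugates, had 1.38, 59.4 and 2.56 CPM in vehicle and 47.7 to 90.9 CPM in the other 9 libraries. Its vehicle replicate 2 lay inside the range of the other groups. Abcc3 and Abcc10 had 1 and 2 counts in the whole vehicle group and at most 5.89 and 12.7 CPM in any library.

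Abcc9, the sulfonylurea receptor that pairs with Kcnj8 in pericyte and smooth muscle potassium channels, had 122, 43.9 and 110 CPM in unstressed, 23.2, 121 and 177 in vehicle, 42.9, 27.3 and 47.3 in psilocybin, and 51.0, 96.5 and 43.2 CPM in MDMA libraries. Kcnj8 had 1.93, 29.7 and 0 CPM in vehicle and 10.7 to 38.0 CPM elsewhere. Vehicle replicate 3 thus had the most Abcc9 and no Kcnj8 count. Mural cell markers summed to 2330, 3090 and 5120 CPM in vehicle replicates 1, 2 and 3, the same order as Abcc9. The order was also the same in unstressed libraries, at 5620, 2780 and 3370 CPM. It differed in psilocybin (3940, 2390 and 2640 CPM) and in MDMA libraries (3750, 3200 and 2990 CPM). The part of mural cells in the Abcc9 level was not tested.

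Subfamilies E and F gave no call. Abce1, which recycles ribosomes, had 173, 86.3 and 142 CPM in unstressed, 67.6, 162 and 11.8 in vehicle, 103, 91.9 and 106 in psilocybin, and 111, 150 and 153 CPM in MDMA libraries. Abcf1, which binds the initiation factor eIF2, had 33.3 to 196 CPM, and Abcf2 36.8 to 356 CPM with its highest value in vehicle replicate 1. Abcf3 had 1.02 CPM in vehicle replicate 3 and 58.6 to 105 CPM in the other 11 libraries. Vehicle replicate 3 was the lowest library for all 4 genes. The translation partners gave no call among 8 tested.

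Counted over the comparisons, the members stood near all genes. At a dispersion scale of 1.0, edgeR recovered 13% to 35% of simulated 16-fold changes, so a missing call does not show that groups are alike. The test of any difference among the 4 groups called none of 36 members and 0.581% of all genes; at an unadjusted p under 0.05 it held 5 members (13.9%) and 14.3% of all genes. Vehicle against unstressed called 1 of 36 (2.78%), lower, against 3.43% of all genes, 3.21% being lower. At an unadjusted p under 0.05 that comparison held 7 members (19.4%) and 18.6% of all genes. MDMA against vehicle called 1, higher, against 0.674%, with 7 members and 16.7% of all genes at an unadjusted p under 0.05. Psilocybin against vehicle called none, against 0.0143%. Psilocybin and MDMA against unstressed called none, against 0.0861% and 0.122%. At an unadjusted p under 0.05 these last 3 comparisons held 8 members (22.2%), 1 (2.78%) and 3 (8.33%), against 15.9%, 6.35% and 4.98% of all genes. For psilocybin against vehicle, DESeq2 called 4 of the 35 members it gave an adjusted p (11.4%), against 7.8% of all genes, and limma voom called 1 of 36 (2.78%), against 3.13%. Neither called a member for psilocybin or MDMA against unstressed, where DESeq2 called 1.81% and 1.62% of all genes and limma voom 0.868% and 1.08%. Without vehicle replicate 2, the library with the fewest counts, 8 of 37 members tested (21.6%) passed in each of the 3 comparisons that involve vehicle, against 25.4% of all genes for vehicle against unstressed, 24.4% for psilocybin and 25% for MDMA against vehicle. Abca7, Abcb10, Abcc1, Abcc10 and Abcd4 were among them in all 3, lower in vehicle. So was Abca8a, higher in vehicle, with 23.5 CPM in vehicle replicate 1 and 499.9 CPM in replicate 3.

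Groups were also compared by overlap of their libraries. In vehicle, 8 members (22.2%) lay below every unstressed library, against 17.8% of all genes: Abca3, Abcb10, Abcb1a, Abcb6, Abcb9, Abcd3, Abcd4 and Abcg3. In psilocybin, 8 members (22.2%) lay below every unstressed library, against 18.5%, among them Abca1, Abcb1a, Abcc4, Abcc5 and Abcg1, and 3 lay above, Abcb8, Abcd3 and Abcf3 (8.33%, against 18.3%). In MDMA, 6 members (16.7%) lay below, Abca2, Abca3, Abca7, Abcb6, Abcc5 and Abcg1, against 10.7%, and 3 (8.33%) lay above, Abcd3, Abcd4 and Abcg2, against 11.7%. The own exons of the 3 above were longer in the annotation of the MDMA libraries, at 1.79, 2.6 and 2.8 times the unstressed length. For the 6 below, that ratio ran from 0.775 to 1.43. The part of the annotation was not tested. Above every vehicle library lay 6 members in psilocybin (16.7%, against 20.8%) and 5 in MDMA (13.9%, against 16.8%), with Abcb10, Abcd3, Abcd4 and Abcg3 in both. Abca2 alone lay below every vehicle library in MDMA (2.78%, against 1.87%).

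Lower in every vehicle library than in all 9 others were 4 of 36 members (11.1%), Abcb10, Abcd3, Abcd4 and Abcg3, against 8.4% of all genes, and no member was higher there, against 0.631%. Fewer vehicle libraries raise both shares. It was 7 members (19.4%) against 12.6% of all genes without vehicle replicate 1, 11 (30.6%) against 28.7% without replicate 2, and 6 (16.7%) against 12.4% without replicate 3. With replicate 2 alone it was 11 (30.6%) against 19.5%, and the same 4 were among them each time. The median log2 difference of tested members was -0.61 for vehicle against unstressed, against -0.18 over all genes. For psilocybin and MDMA against unstressed it was -0.49 and -0.29, against 0.01 and 0.04 over all genes. For psilocybin and MDMA against vehicle it was 0.07 and -0.20, against 0.31 and 0.24. These comparisons share their unstressed or vehicle libraries.

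Psilocybin against MDMA called no member by edgeR, DESeq2 or limma voom, and 0% of all genes passed. At an unadjusted p under 0.05 there were 0 members and 82 of 13945 genes (0.588%). Abca2 alone was higher in every psilocybin than in every MDMA library (2.78%, against 7.76% of all genes). Abca1, Abca9, Abcd4, Abce1 and Abcg2 were lower (5 of 36 or 13.9%, against 8.33%). Abca9 had 52.1, 33.4 and 68.4 CPM in psilocybin and 94.5, 121 and 92.9 in MDMA libraries, a log2 difference of -0.97 ± 0.80 (adjusted p = 1). For Abcd4 it was -0.72 ± 0.89 (adjusted p = 1). Abcg1 had the smallest p of any member, 0.184, with a log2 difference of 0.97 ± 0.69. Marker sums also differed between these groups, with 2150 to 4230 CPM against 6770 to 13500 CPM for fibroblasts and 65500 to 120000 CPM against 23100 to 45200 CPM for choroid plexus epithelium, and their part was not tested.

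**Figure D5:**
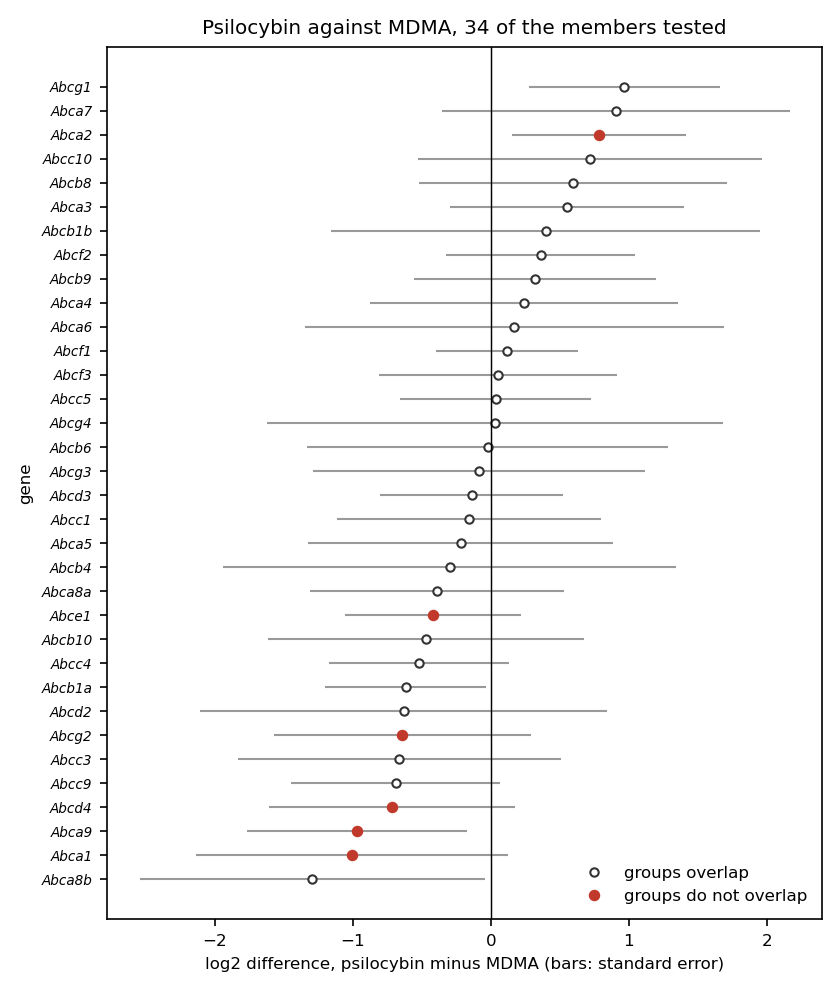
Log2 difference of 34 of the 36 tested members, psilocybin minus MDMA (horizontal axis), with its standard error as a bar; filled red points mark members whose 3 psilocybin libraries all lie on one side of the 3 MDMA libraries. The differences run from -1.29 for Abca8b to 0.97 for Abcg1, and no adjusted p was under 0.05.

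Of 87 companion genes in 9 lists, 80 were tested and none passed edgeR's test in any comparison. At an unadjusted p under 0.05 edgeR held 17 of the 80 for vehicle against unstressed, against 18.6% of all genes. For psilocybin and MDMA against unstressed it held 5 and 2, against 6.35% and 4.98%. For psilocybin and MDMA against vehicle it held 9 and 12, against 15.9% and 16.7%. For psilocybin against MDMA it held 0, against 0.588%. In the same order, DESeq2 called 7, 2, 1, 2, 5 and 0 companion genes, against 12.9%, 1.81%, 1.62%, 7.8%, 9.85% and 0% of all genes. Among the organic anion and drug carriers beside the pumps, Slc22a4 had 0 counts in vehicle and 46.2 CPM in MDMA replicate 2. In all other libraries it had 1.695 to 5.99 CPM (edgeR adjusted p = 0.0688 for MDMA against vehicle). Slco2a1, a prostaglandin carrier, had 0 to 1.38 CPM in vehicle and 1.695 to 23.0 CPM elsewhere. B2m, the light chain of the molecules that the Tap1 and Tap2 transporters load, had 122, 332 and 93.9 CPM in unstressed and 437 to 1370 CPM in psilocybin and MDMA libraries, without overlap (adjusted p = 0.185 and 0.214). Tap1 and Tap2 themselves, ABC genes outside the symbol rule, did not pass in any comparison. Pparg, a lipid-sensing nuclear receptor, had 46.1, 16.1 and 44.0 CPM in vehicle against 0.222 to 4.74 in unstressed libraries (adjusted p = 0.0903).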

How the data were processed

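RNA-seq of 12 libraries labelled as meningeal monocytes was used, grouped by sample title. Per the labels' protocols, RNA was extracted with PicoPure, measured with Qubit and made into NEBNext libraries from 5 ng. The deposited values are raw read counts by gene. The submitters' processing notes name mm10 and the tools edgeR 3.42.4, featureCounts 2.0.1, STAR 2.7.5c and fastp 0.23.2. Per the file headers, unstressed libraries were counted over exons of 35976 RefSeq genes without a strand or paired-end option. Stressed files carry 55401 Ensembl identifiers, with no release or counting command in the header. In the series-wide table, 3 columns matched no sample and were not analysed.

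Of the Ensembl identifiers 55141 matched GENCODE vM21 (GRCm38), and 27578 genes were joined, 26669 by symbol and 909 by overlapping exons (minimum Jaccard index 0.5). All 50 members were joined. Positions are from vM21 and counted from 1. CPM divide by the library total of all genes. Per kilobase, each library used the exon length of its own annotation.

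edgeR 4.0.16 (R 4.3.3) quasi-likelihood tests used TMM scaling, filterByExpr and all 12 libraries, without a replicate block, with Benjamini-Hochberg adjustment over 13945 genes at 0.05. Adjusted p-values without another name are from it, SEs come from its test statistic, and group overlap was read from CPM. The fits were tested on simulated data with 100 changed genes for each fold change. At a dispersion scale of 1.0 they recovered 0% to 2% of 4-fold and 13% to 35% of 16-fold changes, depending on the comparison. At a scale of 0.1 they recovered 80% to 91% and 98% to 100%. A gene that did not pass may therefore still differ between groups. Members were named if called, among the 3 highest of a subfamily or the 5 smallest p of a comparison, on a list of border transporters, apart in 1 group or at 0 throughout. Alternatives used DESeq2 1.42.0, limma 3.58.1, other scalings and filters, fewer libraries and genes with nearly the same exons. Same-numbered vehicle and psilocybin libraries deviated together (correlations across genes of 0.112, 0.213 and 0.115), so the number was taken to pair them, as read from the data. Psilocybin and MDMA (0.225, 0.0239 and 0.214) and vehicle and unstressed libraries (0.0201, 0.131 and 0.0953) also gave only positive values. The remaining pairs of groups did not, though psilocybin and unstressed replicate 2 gave the largest value of all, 0.318. Libraries of different numbers were not correlated, so these values cannot show pairing. Sums and counts cover every member, but some genes are not reported here by name. The members and lists were chosen with earlier results of these data known.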

Additional observations from a re-analysis of the deposited data

How the results depend on the processing

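Counts of members called moved most with the test and the vehicle libraries. For any difference among the 4 groups, vehicle against unstressed, psilocybin against vehicle and MDMA against vehicle, edgeR called 0, 1, 0 and 1. DESeq2 called 4, 4, 4 and 5, against 10.5%, 12.9%, 7.8% and 9.85% of all genes, and limma voom 3, 3, 1 and 3, against 5.94%, 10.1%, 3.13% and 6.36%. Leaving out 1 library at a time gave 0 to 5, 0 to 8, 0 to 8 and 0 to 8, and the highest values came without vehicle replicate 2, where 17.2%, 25.4%, 24.4% and 25% of all genes passed. Without vehicle replicates 1 and 3 together the counts were 3, 3, 0 and 0, against 3.71%, 2.6%, 0% and 0% of all genes. With only the libraries compared, the count was 0 for vehicle against unstressed and for MDMA against vehicle, and 3 for psilocybin against unstressed, against 10.3% of all genes. The replicate block gave 0 in every comparison. Genes with nearly the same exons in both annotations gave 0 for vehicle against unstressed, since Abcd4 is not among them. DESeq2's size factors in edgeR, and the 9 stressed libraries with their own annotation, gave 0 for MDMA against vehicle. The cause of the other moves was not tested.

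Companion genes went from 0 to 4, 7, 2, 1, 2 and 5 with DESeq2 for any difference, vehicle, psilocybin and MDMA against unstressed, and psilocybin and MDMA against vehicle. With limma voom they went to 3 for any difference, 5 for vehicle against unstressed, 1 for psilocybin and 4 for MDMA against vehicle. With no filter they were 1 for any difference and for each drug against unstressed, against 1.33%, 0.241% and 0.312% of all genes. With only the libraries compared they were 11 and 2 for psilocybin and MDMA against unstressed, against 10.3% and 1.77%. Over all genes, leaving out 1 library called 0.0771% to 17.2% for any difference and 0.056% to 25.4% for vehicle against unstressed. It called 0% to 24.4% for psilocybin and 0% to 25% for MDMA against vehicle. Of the companion genes, these fits called 0 to 16 for any difference, 0 to 19 for vehicle against unstressed, 0 to 18 for psilocybin and 0 to 21 for MDMA against vehicle. Without vehicle replicates 1 and 3 the first 2 were 5 and 2.

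Members below all other libraries in vehicle numbered 6 to 11 with 1 vehicle library left out and 11 without replicates 1 and 3, settings added after seeing the data, as were those for the bounds and ratios against vehicle. The subfamily C sum in vehicle was 327 CPM with TMM-scaled sizes. Abca8a ranged from -0.57 to 2.83 for vehicle against unstressed and from -3.12 to 0.30 for MDMA against vehicle with 1 vehicle library left out, turning without replicate 3, and was -0.21 for vehicle against unstressed without replicates 1 and 3. DESeq2's size factors moved the median log2 difference of all genes from -0.18 to 0.00 for vehicle against unstressed, and from 0.31 to 0.12 and 0.24 to 0.10 for psilocybin and MDMA against vehicle. A floor of 3 counts in a library of 807725 counts hides most members under a few CPM in vehicle replicate 2.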
